A study of Mus musculus with 39 samples.

Results

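The 12 Oct4+ peak lists, out of 36 lists in the series, covered 4 histone marks with 3 replicates each. Each of 21911 protein-coding promoters, taken from 1 kb upstream to 100 bp downstream of the gene start in GRCm38, was given the set of marks with a listed peak in 2 or more of the 3 Oct4+ libraries of that mark. Of 16 possible combinations 15 occurred, and 9212 promoters (42.0%) had 1 or more marks. The cells were naive extra-embryonic endoderm (nEnd), a stem cell culture derived from mouse embryonic stem cells and grown on feeder fibroblasts in RACL, a medium with LIF, an inhibitor of GSK3 (CHIR99021) and Activin A. All came from the single reporter line OCT4-mCherry, in which the OCT4 protein carries a red fluorescent tag, and received no treatment. Cells were sorted by FACS on OCT4-mCherry and PDGFRA-APC into Oct4+ cells, which were positive for OCT4-mCherry alone, double positive (DP) cells and Pdgfra+ cells. CUT&Tag, in which an antibody brings a transposase to a histone mark so that the DNA around it is cut out and sequenced, was performed for H3K4me1, H3K27ac, H3K27me3 and H3K9me3. Each mark had its own antibody, so mark and antibody cannot be told apart.

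H3K27ac is laid down at active promoters and enhancers, and H3K4me1 on enhancers and on the flanks of promoters. H3K27me3 is the product of Polycomb repressive complex 2 and covers CpG-rich promoters of developmental regulators that are silent, whereas H3K9me3 covers repeats, imprinted loci and some germline promoters. Pluripotent cells are known for promoters that hold activating and Polycomb marks together. A sorted population is a mixture of cells and alleles, and whether a pair of marks at a promoter lay on the same chromosome copy was not tested.

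The 250 bases before the RefSeq start of 6 promoters (GRCm38.p6, 5′ to 3′ along the gene, with every CpG in capitals) show the range of sequence behind the combinations. Pou5f1, which encodes OCT4, carried H3K4me1 and H3K27ac. Pdgfra, the gene of the receptor used in the sort, and Cdx2, a trophectoderm regulator, carried H3K27me3 in the whole promoter window. In a narrower window around the gene start, which still holds the printed stretch, Cdx2 kept H3K27me3 by the same rule. Pdgfra had no listed mark in that narrower window. Peg3, a paternally expressed imprinted gene, carried H3K9me3, and Dazl, a germ cell RNA-binding protein, carried H3K27ac and H3K9me3. Afp, an endoderm secreted protein, had no listed mark. The stretches held 8 CpGs for Pou5f1, 4 for Pdgfra, 13 for Cdx2, 8 for Peg3, 20 for Dazl and 1 for Afp.
Pou5f1, chr17:35505782-35506031, plus strand: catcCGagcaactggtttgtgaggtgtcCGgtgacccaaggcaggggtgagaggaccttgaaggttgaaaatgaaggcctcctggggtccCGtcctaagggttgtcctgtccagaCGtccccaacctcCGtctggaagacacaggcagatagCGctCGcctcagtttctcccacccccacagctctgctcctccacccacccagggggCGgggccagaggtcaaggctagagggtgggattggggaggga
Pdgfra, chr5:75152001-75152250, plus strand: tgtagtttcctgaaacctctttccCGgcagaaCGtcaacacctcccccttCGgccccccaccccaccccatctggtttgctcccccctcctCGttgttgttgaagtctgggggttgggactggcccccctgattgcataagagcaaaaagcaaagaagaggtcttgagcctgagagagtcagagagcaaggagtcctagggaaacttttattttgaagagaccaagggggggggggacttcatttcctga
Cdx2, chr5:147307250-147307499, minus strand: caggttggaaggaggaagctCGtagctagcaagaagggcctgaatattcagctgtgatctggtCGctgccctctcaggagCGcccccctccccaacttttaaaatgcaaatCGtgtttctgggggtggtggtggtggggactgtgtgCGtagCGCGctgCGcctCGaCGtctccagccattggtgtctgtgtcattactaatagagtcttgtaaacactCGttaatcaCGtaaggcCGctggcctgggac
Peg3, chr7:6730420-6730669, minus strand: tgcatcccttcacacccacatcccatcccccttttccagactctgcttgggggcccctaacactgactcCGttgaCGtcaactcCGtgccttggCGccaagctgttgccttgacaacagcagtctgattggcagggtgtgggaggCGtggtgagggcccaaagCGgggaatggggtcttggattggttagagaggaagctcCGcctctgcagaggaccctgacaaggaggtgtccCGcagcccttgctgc
Dazl, chr17:50293621-50293870, minus strand: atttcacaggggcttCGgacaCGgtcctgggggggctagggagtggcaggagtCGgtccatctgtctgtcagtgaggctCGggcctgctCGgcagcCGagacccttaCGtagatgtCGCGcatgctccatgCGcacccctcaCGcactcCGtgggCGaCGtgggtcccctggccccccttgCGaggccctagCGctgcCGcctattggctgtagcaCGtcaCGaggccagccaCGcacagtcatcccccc
Afp, chr5:90490464-90490713, plus strand: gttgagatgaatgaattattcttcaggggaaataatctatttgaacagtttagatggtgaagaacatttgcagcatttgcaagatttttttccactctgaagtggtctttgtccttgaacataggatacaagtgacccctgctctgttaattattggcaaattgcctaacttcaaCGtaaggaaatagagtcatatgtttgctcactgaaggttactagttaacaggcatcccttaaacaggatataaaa

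The number of listed peaks differed widely between libraries of the same mark, and the number of reads behind each list is unknown. The H3K4me1 lists held 4127, 16057 and 7443 peaks in replicates 1, 2 and 3, and the H3K27ac lists 38619, 65131 and 8574. H3K27me3 had 1629, 2948 and 5785 peaks, whereas H3K9me3 had 29871, 22912 and 14160. H3K27ac replicate 3, H3K4me1 replicate 2 and H3K27me3 replicates 1 and 3 therefore stood apart, and the absence of a peak from a list does not show that the mark was absent. Of the 6980 promoters given H3K27ac (31.9%), 3494 had it in all 3 libraries, and 3279 lacked it in replicate 3 alone. For H3K27me3 912 of 2000 promoters (9.13%) had a peak in all 3 libraries, 998 lacked it in replicate 1 alone and 0 in replicate 3 alone. For H3K9me3 132 of 279 (1.27%) and for H3K4me1 193 of 764 (3.49%) had the mark in all 3. Just outside the rule, with a peak in 1 library, lay 2041 promoters for H3K4me1, 3720 for H3K27ac, 1468 for H3K27me3 and 281 for H3K9me3.

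No mark was listed by this rule at 12699 promoters (58.0%). H3K27ac alone was the most frequent combination with 6312 promoters (28.8%), followed by H3K27me3 alone with 1676 (7.65%). H3K4me1 joined H3K27ac at 386 promoters (1.76%), stood alone at 244 (1.11%) and joined H3K27me3 at 95 (0.434%). H3K9me3 stood alone at 209 (0.954%) and joined H3K27ac at 59 (0.269%). The opposite modifications of lysine 27, H3K27ac and H3K27me3, were both listed at 184 promoters (0.840%), and with H3K4me1 as well at 36 (0.164%). With any replicate left out, 8 to 84 promoters had both lysine 27 marks alone and 1 to 10 had the 3 marks. H3K27me3 and H3K9me3 met at 7 promoters (0.0319%), those of Gata2, Igf2, Ikzf1, Tmod2, Plppr3, Cyp1b1 and C130060K24Rik. Etnk2 was the only promoter with all 4 marks, and Gstp3, Slc17a9 and AW822073 were each the only promoter of their combination.

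**Figure D1:**
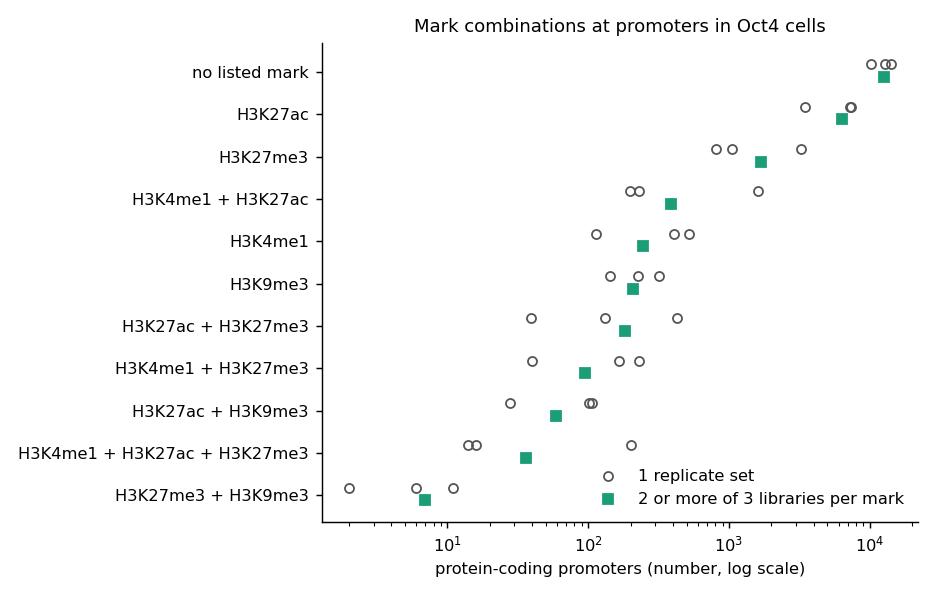
Number of protein-coding promoters in each mark combination in Oct4+ cells, on a log axis. Squares are promoters with each mark in 2 or more of 3 libraries, and open circles are the same counts from 1 library per mark, taken by replicate number. Promoters with no listed mark (12699) and H3K27ac alone (6312) lie to the right in every set, whereas H3K4me1 with H3K27ac runs from 198 to 1608 between sets.

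When a single library of each mark was taken, by replicate number, the order of the large classes held but the mixed classes moved. H3K27ac alone held 7244, 7358 and 3453 promoters in sets 1, 2 and 3, and H3K27me3 alone 808, 1049 and 3230. H3K4me1 with H3K27ac ran from 228 and 198 in sets 1 and 3 to 1608 in set 2, which contains the long H3K4me1 list. H3K27ac with H3K27me3 held 131, 431 and 39 promoters in sets 1, 2 and 3. The same sets from the other populations gave 27.5 ± 10.1% H3K27ac alone in Oct4+ cells (mean ± SD, n = 3 sets), 22.3 ± 13.4% in DP and 17.7 ± 4.1% in Pdgfra+ cells. None of the 16 combinations passed the exact permutation test between populations over 9 sets after adjustment, and 2 had an unadjusted p below 0.05. The lower of these was H3K27ac with H3K9me3, at 0.359 ± 0.2005% of promoters in Oct4+ cells, 0.0898 ± 0.0503% in DP and 0.0548 ± 0.0299% in Pdgfra+ cells (exact p = 0.0179, adjusted p = 0.286). This exact permutation test cannot go below p = 0.00357, at which a combination alone would not pass after adjustment over 16. The lack of a call therefore does not show that the populations were alike.

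The marks differed inside the Oct4+ population in all 4 promoter measures taken per library. A listed peak of H3K27ac lay on 35.3, 44.3 and 17.0% of promoters in replicates 1, 2 and 3, and of H3K27me3 on 4.58, 8.74 and 15.8%. H3K4me1 reached 1.84, 11.8 and 3.57% and H3K9me3 1.97, 1.62 and 0.844%. Every H3K27ac library thus exceeded every library of the other marks, and the 4 marks differed by the exact permutation test over 12 libraries (adjusted p = 0.00381 over 4 measures). The order of H3K27ac and H3K27me3 rests on the number of listed peaks. With every library held to the 1074 peaks of highest total signal, the length of the shortest of the 36 lists, H3K27me3 exceeded H3K27ac by 1.59 percentage points. Without replicate 3 the difference between the marks was no longer called (exact permutation test, adjusted p = 0.102).

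CpG content separated the marks most firmly. The CpG ratio, the observed number of CpGs in the 1100 bp window over the number expected from its C and G content, averaged 0.578, 0.554 and 0.634 over promoters with a peak in the 3 H3K27ac libraries. It was 0.507, 0.504 and 0.477 for H3K27me3, 0.414, 0.466 and 0.426 for H3K4me1 and 0.343, 0.347 and 0.388 for H3K9me3. The ranges of the 4 marks did not overlap for any pair, and the exact permutation test gave p = 6.49e-05, the smallest that 12 libraries allow (adjusted p = 0.00026). The call held under every alternative tried, and H3K27me3 minus H3K27ac ran from -0.114 to -0.0604 when 1 replicate number was left out.

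**Figure D2:**
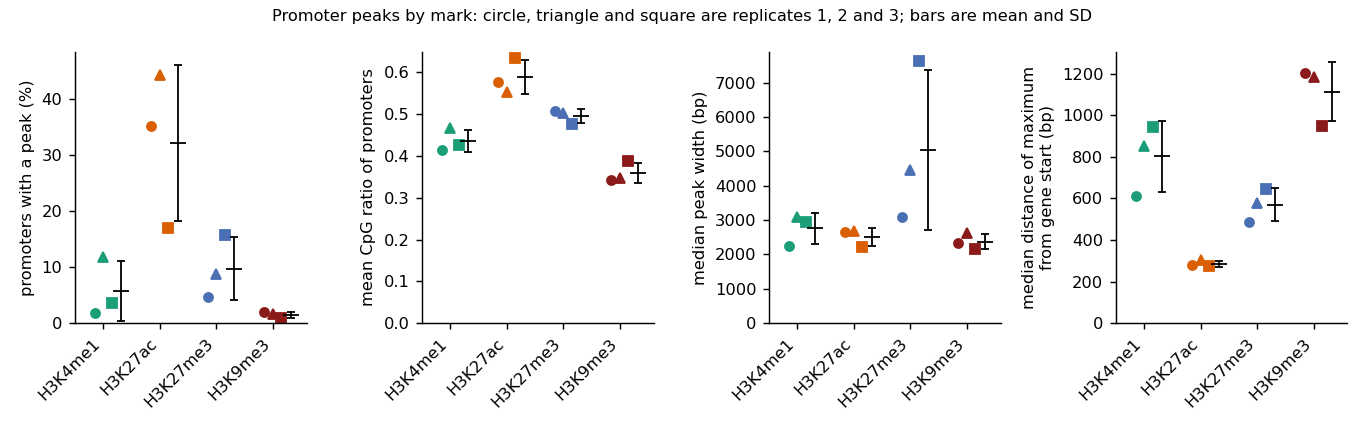
Promoter measures of the 12 Oct4+ libraries by mark: percent of promoters with a listed peak, mean CpG ratio of those promoters, median width of the peaks and median distance of the point of highest signal from the gene start. Circles, triangles and squares are replicates 1, 2 and 3, and black bars are mean ± SD. The CpG ratios of the 4 marks do not overlap, and the 3 H3K27ac libraries lie nearest to the gene start, at 274.5 to 302.5 bp.

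Promoter peaks also differed in width and in where their maximum fell. H3K27me3 peaks had median widths of 3075, 4453 and 7615.5 bp, all above the 2208 to 2679 bp of H3K27ac and the 2157 to 2609 bp of H3K9me3. H3K4me1 peaks, at 2244 to 3091 bp, overlapped with both ranges (exact permutation test of 4 marks, adjusted p = 0.0167). The width call was lost without replicate 2 (exact permutation test, adjusted p = 0.0952), without replicate 3 (adjusted p = 0.267) and with lists of equal length (adjusted p = 0.852). The maximum lay 279, 302.5 and 274.5 bp from the gene start for H3K27ac, 484.25 to 644 bp for H3K27me3, 611.5 to 943.5 bp for H3K4me1 and 948.5 to 1205.25 bp for H3K9me3 (exact permutation test, adjusted p = 0.00039). With lists of equal length this call was lost too (exact permutation test, adjusted p = 0.075). A wide peak can hold its maximum far from the start, so distance is not independent of width. For each pair of marks 3 libraries against 3 cannot go below an exact p = 0.10, the value reached by all pairs whose ranges did not overlap.

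H3K4me1 peaks tended to fall on promoters with H3K27ac, and H3K27me3 peaks away from them. Among promoters with a peak in an H3K4me1 library, 54.0 ± 3.43% (mean ± SD, n = 3 libraries) carried H3K27ac, against 31.9% of all promoters. In H3K27me3 libraries the share was 11.1 ± 0.273% and in H3K9me3 libraries 23.2 ± 1.67%, and the 3 marks differed (exact permutation test over 9 libraries, p = 0.00357, the smallest possible, adjusted p = 0.0143). H3K27me3 was found at 18.2 ± 4.21% of promoters with an H3K4me1 peak, 3.79 ± 3.01% of those with H3K27ac and 3.18 ± 1.17% of those with H3K9me3, against 9.13% of all (exact permutation test, adjusted p = 0.0381). H3K4me1 was found at 5.71 ± 0.343% of H3K27ac and 6.65 ± 0.832% of H3K27me3 promoters, both above the 3.49% of all, and at 1.123 ± 0.0387% of H3K9me3 promoters (exact permutation test, adjusted p = 0.0143). The order of H3K27ac and H3K27me3 in this last comparison turned under 7 of the alternatives. H3K9me3 shares were 0.954 ± 0.0834% for H3K27ac, 0.566 ± 0.270% for H3K4me1 and 0.543 ± 0.133% for H3K27me3, against 1.27% of all, and did not pass (exact permutation test, adjusted p = 0.0607). The 4 tests are not independent, since each pair of marks enters 2 of them.

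By the consensus rule, 424 promoters had both H3K4me1 and H3K27ac, where 243 would follow from multiplying the shares, and 132 had H3K4me1 and H3K27me3 against 69.7. H3K27ac and H3K27me3 met at 222 against 637. H3K27me3 and H3K9me3 met at 9 against 25.5. H3K27ac and H3K9me3 met at 62 against 88.9.

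**Figure D3:**
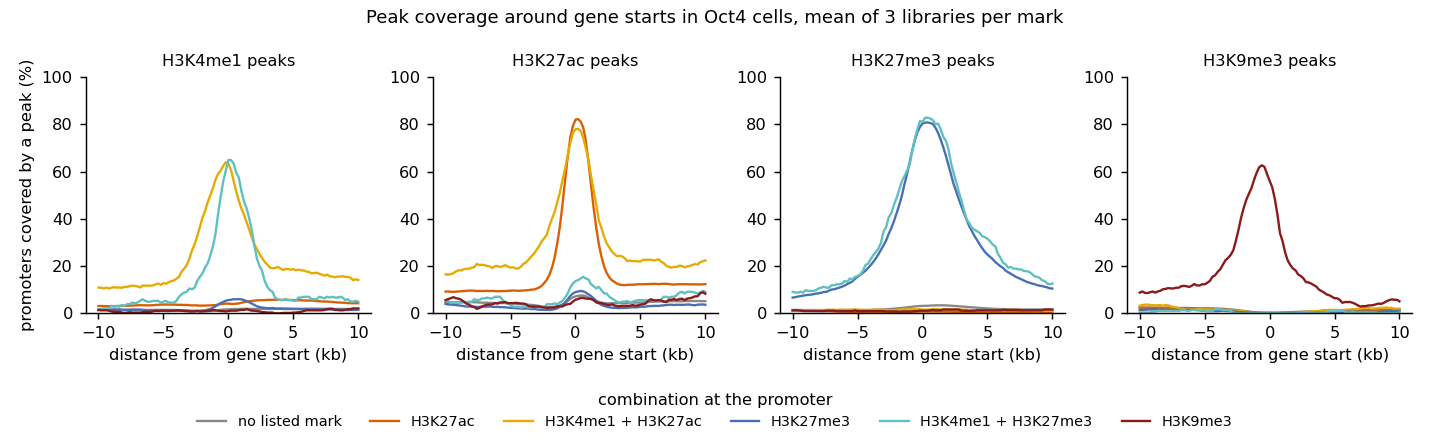
Percent of promoters covered by a listed peak at each distance from the gene start, from 10 kb upstream to 10 kb downstream, as the mean of 3 Oct4+ libraries per mark, in 1 panel per mark. Lines are 6 classes of promoters by their combination. A class is high for its own marks by its definition, and the panels show reach. At 2 kb downstream H3K27me3 covers 62.7 ± 33.6% of H3K27me3 promoters (mean ± SD, n = 3 libraries). H3K27ac covers 24.1 ± 13.3% of H3K27ac promoters there.

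The classes differed in the mean reach of their marks, with a wide spread between libraries. At 5 kb upstream, H3K27me3 peaks covered 15.5 ± 17.1% of the promoters with H3K27me3 alone (mean ± SD, n = 3 libraries). H3K27ac peaks covered 9.58 ± 6.43% of those with H3K27ac alone, within that spread. Promoters with H3K4me1 and H3K27ac lay in wider acetylated stretches, with H3K27ac over 37.1% of them at 2 kb upstream and 36.2% at 2 kb downstream, against 16.4 and 24.1% for H3K27ac alone. Their H3K27ac peaks had median widths of 3644, 3953 and 2461 bp in replicates 1 to 3, against 2690, 2863 and 2218 bp at promoters without H3K4me1, so they were wider in each of the 3 libraries. At promoters with both lysine 27 marks the acetylated peaks were narrower, at 2337, 2581 and 1980 bp, where the value of replicate 3 rests on 19 of the 184 promoters. Their total signal was also low, with a median percentile within each H3K27ac list of 46.2, 67.7 and 22.6 against 78.1, 86.2 and 60.04 for H3K27ac alone. The H3K27me3 peaks there, at 3069, 4406 and 7603 bp, were close to the 3075, 4510 and 9325 bp of H3K27me3 alone in replicates 1 and 2.

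Flanking peaks, within 5 kb of the start but outside the window, were counted for marks that the promoter itself lacked. H3K4me1 flanked 715 of 6312 promoters with H3K27ac alone (11.3%), 77 of 1676 with H3K27me3 alone (4.59%) and 531 of 12699 with no listed mark (4.18%). Of all promoters without H3K4me1 it flanked 6.33%. H3K27ac flanked 86 of 244 promoters with H3K4me1 alone (35.2%), against 10.7% of all promoters without H3K27ac. H3K27me3 flanked 33 of 6312 promoters with H3K27ac alone (0.523%) and 280 of 12699 unmarked promoters (2.20%), against 1.70% of all promoters without H3K27me3.

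The combinations split by sequence. Median CpG ratios were 0.628 for H3K27ac alone, 0.584 for H3K27ac with H3K27me3, 0.506 for H3K27me3 alone and 0.411 for H3K4me1 with H3K27ac, against 0.392 over all promoters. They were 0.305 for H3K4me1 alone, 0.268 for H3K9me3 alone and 0.240 for no listed mark, whereas H3K27ac with H3K9me3 stood at 0.522. Repeats masked in the genome filled a mean of 27.9% of the window for H3K9me3 alone, 22.8% for no listed mark, 16.02% for H3K27ac alone and 13.1% for H3K27me3 alone. Of promoters with a CpG ratio under 0.2, 90.5% had no listed mark and 4.33% had H3K27ac alone, and from 0.8 upward 19.7% had none and 70.7% had H3K27ac alone. H3K27me3 alone was most frequent in the middle, at 11.9% from 0.4 to 0.6, and fell to 5.60% from 0.8 upward.

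**Figure D4:**
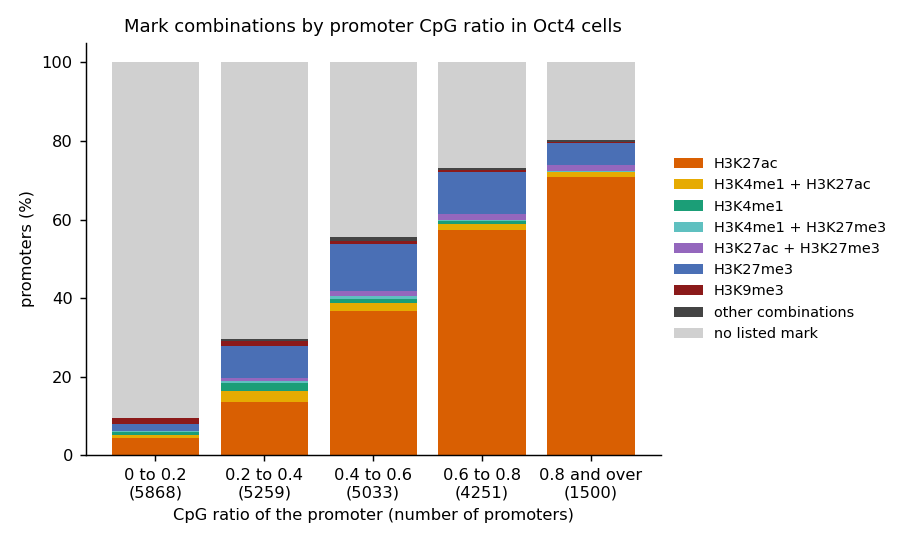
Share of promoters in each mark combination in Oct4+ cells, in 5 ranges of the promoter CpG ratio, with the number of promoters under each bar. The share with no listed mark drops from 90.5% in the lowest range to 19.7% in the highest, and H3K27ac alone rises from 4.33 to 70.7%.

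Divergent promoters, with the start of a gene on the other strand within 1 kb upstream, were mostly acetylated. They made up 1055 of 6312 promoters with H3K27ac alone (16.7%), 23 of 1676 with H3K27me3 alone (1.37%), 2 of 184 with both and 366 of 12699 with no listed mark (2.88%), against 6.76% of all. Neighbours of this kind share bases of their windows and so share peaks. Within the range of CpG ratio from 0.6 to 0.8 the shares were 22.1% for H3K27ac alone, 1.75% for H3K27me3 alone and 12.2% for no listed mark.

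Short motifs were searched on both strands from 250 bp upstream to 50 bp downstream of the gene start. The ETS motif CCGGAAG lay in 21.5% of promoters with H3K27ac alone and in 3.76% with H3K27me3 alone, against 10.8% of all promoters. In the range of CpG ratio from 0.6 to 0.8 the shares were 26.4 and 2.63%, and unmarked promoters of that range stood at 18.97%. The GC box GGGCGG was frequent in both classes, at 65.7 and 62.7%, and at 28.2% of unmarked promoters, against 43.0% of all. The TATA box TATAAA was found at 22.0% of promoters with H3K9me3 alone and 16.6% of unmarked ones, against 6.23% with H3K27ac alone and 8.11% with H3K27me3 alone. The CCAAT box lay between 28.3 and 45.9% in all classes of 36 or more promoters. CACGTG, the E-box, was found at 11.2% of promoters with H3K27ac alone against 7.74% of all, and the GATA motif AGATAAG and the AP-1 motif TGAGTCA at 1.44 and 2.96% against 2.80 and 4.59%. The octamer bound by OCT4 lay in 1.31% of promoters with H3K27ac alone, against 1.57% of all. It lay in 2.85% of the 386 with H3K4me1 and H3K27ac and 2.87% of the 209 with H3K9me3 alone. The shares were 3.26% of the 184 with H3K27ac and H3K27me3 and 5.08% of the 59 with H3K27ac and H3K9me3. In these small classes the shares rest on few promoters.

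Promoters of the pluripotency network were acetylated. Of 26 general and naive pluripotency genes 19 carried H3K27ac (19, 19 and 17 in replicates 1, 2 and 3), against 31.9% of all promoters. Leaving out any replicate kept 15 to 18. H3K27me3 was listed at 0 of the 26, against 9.13% of all promoters. The median CpG ratio of the list, 0.312, was below that of the acetylated class. Pou5f1 had an H3K27ac peak of total signal 59678, 57049 and 26068 in replicates 1 to 3, and H3K4me1 peaks of 43764 and 15353 in replicates 2 and 3. Total signal is coverage summed over the peak, and since its scaling to depth is not known it can be set side by side within a library only. Nanog, its partner in the network, had H3K27ac signals of 66965, 41366 and 9277, with H3K4me1 in replicate 2 alone. Sox2 and Klf4 had H3K27ac in all 3 libraries, with signals of 11596 to 19132 and 14947 to 29432. Zfp42 had H3K27ac in replicates 1 and 3. Tfcp2l1, Prdm14, Tdgf1 and Dppa5a joined Pou5f1 with H3K4me1. Esrrb had no listed peak of any mark at the annotated gene start. With a window at every transcript start of a gene, Esrrb carried H3K27ac and H3K27me3, and the H3K27ac count of the list rose to 24. The 31.9% of all promoters belongs to the rule of a single start, so it cannot be set against this count. Fgf4, Nr5a2, Tet1 and Nr0b1 were the other unmarked members. Sall4 carried H3K4me1 alone. Dppa3 was given H3K9me3, with signals of 3801 and 4610 in replicates 1 and 2 and no peak in replicate 3. Both lay at the floor of their lists, whose lowest signals were 3752 and 4609. Dppa3 also had an H3K27me3 peak of 241854 in replicate 3 alone and an H3K4me1 peak of 5551 in replicate 1 alone.

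Signalling genes were grouped by pathway, and their H3K27ac counts stand against 31.9% of all promoters. All but Jak1 of 9 LIF and JAK-STAT genes carried H3K27ac alone, among them Lif, the receptor subunits Lifr and Il6st and the transducer Stat3, although only 1 of the 9 had a peak in replicate 3. Of 15 FGF and ERK genes 11 carried H3K27ac, including the kinases Map2k1 and Mapk3, and the 2 with H3K27me3 were the ligands Fgf5 and Fgf8. Among 20 Nodal and BMP genes 12 carried H3K27ac, among them Nodal, whose H3K27ac signals were 39276, 36183 and 33020. Lefty2, a Nodal antagonist, carried H3K4me1 and H3K27ac, while Lefty1 and Bmp4 carried H3K4me1 alone in 3 of 3 libraries. Of the 19 Wnt ligand genes 16 carried H3K27me3 (8, 16 and 18 in replicates 1, 2 and 3), against 9.13% of all promoters, and 8 did without replicate 2 or without replicate 3, when both libraries left were required. In the Wnt pathway list 6 of 17 genes carried H3K27ac (35.3%), near the share of all promoters. They were the receptors Lrp5 and Lrp6, the destruction complex genes Apc, Axin2 and Gsk3b, and Tcf7l1. H3K27me3 was listed at 7 of the 17, among them the receptor Fzd7 and the target Sp5, which also carried H3K4me1. Ctnnb1, Tcf7, Lef1 and Wnt3a had no listed mark.

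H3K27me3 covered regulators of other lineages. Of 31 germ layer and organ regulators 24 carried it (10, 24 and 26 in replicates 1, 2 and 3), against 9.13% of all promoters, and 1, Irx3, also carried H3K27ac. Without replicate 2 or without replicate 3 the count dropped to 10, since both libraries left were then required and replicate 1 had the shortest list. Olig2, a neural regulator, had signals of 84489 and 267114 in replicates 2 and 3 and no peak in replicate 1. Pax6 had 9750, 59575 and 269337, and Neurog2, a proneural gene, carried H3K4me1 in 2 libraries and H3K27me3 in 3. Gsc had H3K4me1 in 2 libraries and H3K27me3 in replicate 3 alone. Among families of developmental transcription factors 22 of 37 LIM homeobox, paired box, sine oculis-related and NK homeobox genes, 8 of 15 T-box genes and 19 of 44 Fox genes carried H3K27me3, against the same 9.13%. Of 39 Hox genes 19 did (9, 18 and 37 in replicates 1, 2 and 3), so replicate 3 alone listed nearly all Hox promoters. Hoxa7, Hoxa9 and Hoxb1 had H3K4me1 in addition.

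Trophectoderm and endoderm genes were mixed. Among 22 trophectoderm genes 10 carried H3K27me3 (3, 10 and 15 in replicates 1, 2 and 3, and 3 to 10 with a replicate left out, against 9.13% of all promoters), including Cdx2 with signals of 47478 and 241345 in replicates 2 and 3, Gata3, Eomes and Tfap2c. H3K27ac was listed at 6 of the 22, near the 31.9% of all promoters. Elf5, Krt8, Fgfr2 and Cldn4 carried it alone, and Tead4 and Elf3 also H3K4me1. Gata2 carried H3K27me3 in 3 libraries and H3K9me3 in 2. Of 25 primitive endoderm genes 11 carried H3K27me3 (5, 10 and 17 in replicates 1, 2 and 3, and 4 to 10 with a replicate left out), against 9.13% of all. A further 12 had no listed mark, Gata4 and Hnf4a among them, against 58.0% of all promoters, and 4 of the 25 carried H3K27ac.

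Some endoderm promoters with H3K27me3 in Oct4+ cells had H3K27ac in the other populations. Pdgfra had H3K27me3 signals of 19451 and 131466 in Oct4+ replicates 2 and 3, no H3K27me3 peak in the DP and Pdgfra+ libraries, and H3K27ac in 2 of 3 DP and 3 of 3 Pdgfra+ libraries. Foxa2, an endoderm pioneer factor, had 59910 and 225081 in Oct4+ replicates 2 and 3, and H3K27ac in 3 of 3 libraries of both other populations. Sox17 had H3K27me3 in 2 Oct4+ libraries and H3K27ac in 2 of 3 DP and 0 of 3 Pdgfra+ libraries. Gata6, the upstream endoderm regulator, had H3K27me3 in Oct4+ replicates 1 and 3 (11252 and 140640) and H3K27ac in replicates 1 and 2 (7434 and 12499), and H3K27ac in 3 of 3 libraries of both other populations. Col4a1 and Col4a2, basement membrane collagens whose starts lie 21 bp apart, shared H3K4me1, H3K27ac and H3K27me3 in Oct4+ cells and had H3K27ac alone in 3 of 3 libraries of both other populations. The trophectoderm promoter Cdx2, by contrast, had H3K27me3 in 3 DP and 2 Pdgfra+ libraries.

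**Figure D5:**
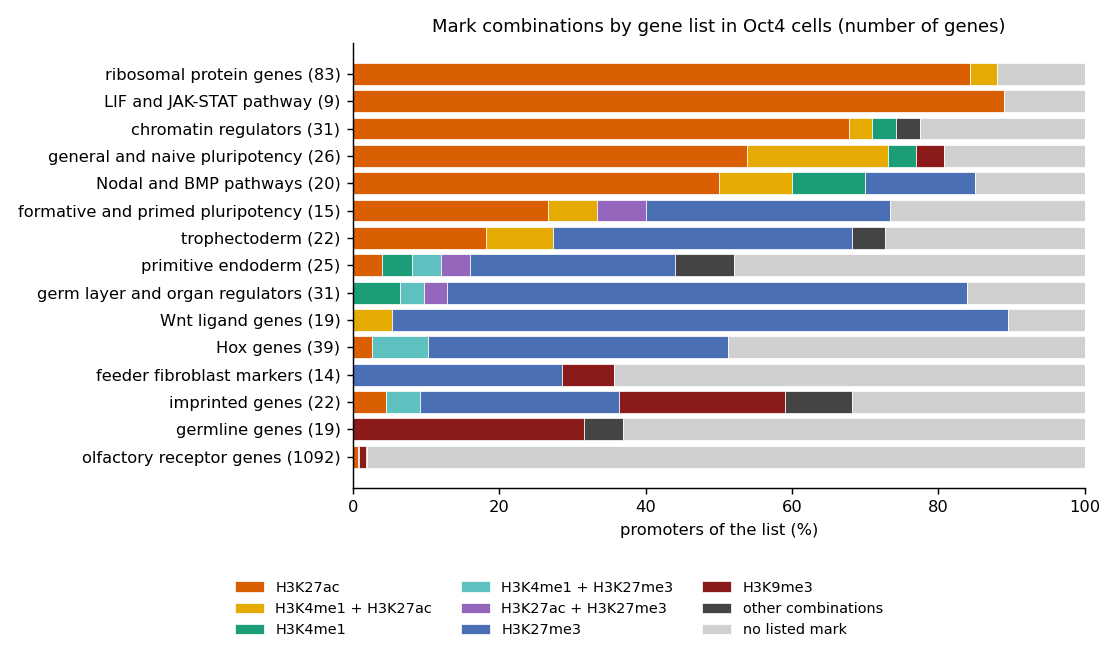
Share of promoters in each mark combination in Oct4+ cells for 15 gene lists, with the number of genes in brackets. Ribosomal protein and LIF pathway genes are mostly acetylated, Wnt ligands and germ layer regulators mostly carry H3K27me3, H3K9me3 is found at 7 of 22 imprinted and 7 of 19 germline genes, and 1071 of 1092 olfactory receptor promoters are unmarked.

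H3K9me3 fell on germline and imprinted genes. Of 19 germline genes 7 carried it (10, 7 and 4 in replicates 1, 2 and 3, and 3 to 6 with a replicate left out), against 1.27% of all promoters. They were Ddx4, Mael, Sycp3, Dpep3, Brdt and Mov10l1 and, with H3K27ac, Dazl. The H3K9me3 signals of Dazl were 8812 and 10641 and its H3K27ac signals 8776 and 9190, all in replicates 1 and 2. The lowest H3K9me3 signals listed were 3752, 4609 and 4011 in replicates 1, 2 and 3. Near them lay Ddx4 in replicate 1 (3786, but 8394 in replicate 2) and Mael in replicates 1 and 3 (4604 and 4354). Dpep3 (4362) and Brdt (4643) did so in replicate 3 alone. Of 22 imprinted genes 7 carried H3K9me3, and 6 or 7 did with any replicate left out. Peg10 and its neighbour Sgce shared a peak, so the 7 promoters held 6 separate peaks. Peg3 had 30070, 42316 and 18928, Peg10 14983, 17410 and 4097 and Nnat 16746, 13270 and 13879, each in all 3 libraries. Zrsr1 had H3K27ac and H3K9me3 in all 3 libraries each, at 9320 to 18199 and 6914 to 27034. Igf2 carried H3K9me3 in 3 libraries and H3K27me3 in 2. H3K27me3 was listed at 8 of the 22 (3, 8 and 10 in replicates 1, 2 and 3, and 3 to 8 with a replicate left out), against 9.13% of all promoters. Of these 6 carried H3K27me3 alone, among them Grb10, Dlk1 and Plagl1, and Cdkn1c carried it with H3K4me1. Imprinted genes have a silent and an active allele, and the lists do not separate them.

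Housekeeping genes were acetylated and large sensory families unmarked. Of 83 ribosomal protein genes 73 carried H3K27ac and 0 H3K27me3, with 54 to 72 when a replicate was left out, against 31.9 and 9.13% of all promoters. Mitochondrial ribosomal protein genes (51 of 78), respiratory chain genes (62 of 89), proteasome genes (31 of 50) and replication-dependent histone genes (49 of 71) carried H3K27ac too. Of 31 chromatin regulators 23 carried H3K27ac, including the Polycomb genes Ezh2, Eed and Suz12, and 0 carried H3K27me3. Of 23 glycolysis and cell cycle genes 18 carried H3K27ac and 0 H3K27me3. Both lists stand against the same 31.9 and 9.13% of all promoters. Among 391 zinc finger genes named Zfp 167 carried H3K27ac (42.7%), 19 H3K27me3 (4.86%) and 8 H3K9me3 (2.05%, against 1.27% of all). Olfactory receptors had a mark at 21 of 1092 promoters and vomeronasal receptors at 12 of 326, against 42.0% of all. H3K9me3 was listed at 12 olfactory (1.10%) and 7 vomeronasal (2.15%) receptor promoters, against 1.27% of all. Keratin (6 of 49), beta-defensin (3 of 42) and clustered protocadherin genes (3 of 56) were also mostly unmarked. Of 8 genes of the early cleavage embryo 1 had a mark, Tmem92, with H3K27ac in replicates 2 and 3. Of 15 formative and primed pluripotency genes 6 carried H3K27ac (6, 8 and 0 in replicates 1, 2 and 3, and 31.9% of all promoters) and 6 H3K27me3 (4, 5 and 10, and 9.13% of all), with Otx2, Fgf5 and Fgf8 among the latter and Pou3f1, a neural and epiblast factor, under both. Markers of the feeder fibroblasts had H3K27ac at 0 of 14 promoters, and 1 of 14 in H3K27ac replicate 2, against 31.9% of all. Their median CpG ratio was 0.218, and in the range from 0.2 to 0.4 H3K27ac alone was listed at 13.6% of promoters. H3K27me3 was listed at 4 of the 14, against 9.13% of all, and H3K9me3 at 1, Lum. Whether feeder cells were present was not tested.

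The promoters that carried their combination in all 12 libraries were ranked by the percentile of their peaks. Of the 6312 with H3K27ac alone 2793 had it in 3 of 3 libraries with no other listed mark in any library, led by Eif2s2 (translation initiation), with peaks 15115, 14984 and 9866 bp wide, N4bp1 and Ssr2. Of the 1676 with H3K27me3 alone 431 did, led by Hmx1, a homeobox gene with H3K27me3 over 6937, 25439 and 45150 bp, Ecel1 and Prrt4. H3K9me3 alone had 75 such promoters of 209, led by Ifna13, Gm26661 and Fbxl21. H3K4me1 with H3K27ac had 44 of 386, led by Midn and by Mmrn2 and Sncg, which shared their peaks. H3K4me1 alone had 8 of 244, led by Pou2f3, Sdr9c7 and Misp. H3K27ac with H3K9me3 had 15 of 59, led by Usp29, which lies beside Peg3, with Zfp982 and Eef1e1. H3K27ac with H3K27me3 had 2 of 184, the homeobox gene Irx3 and Insm1, a neuroendocrine zinc finger, and H3K4me1 with H3K27me3 had 2 of 95, Sfi1 and Ccnd2. Prom1 was the only 1 of 36 promoters with H3K4me1, H3K27ac and H3K27me3 in all 9 libraries.

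Runs of neighbouring genes with the same combination were longest for H3K27ac alone, which was also the most frequent combination with a mark (28.8% of promoters). The longest held 13 genes, from Naa25 to Sh2b3, over 439.7 kb of chromosome 5 (chr5:121397936-121837646). It rested on fewer separate H3K27ac peaks than genes, with 9, 9 and 4 in replicates 1 to 3. Runs of 12 lay on chromosomes 17, from Lonp1 to Mllt1 (8, 9 and 6 peaks), and 19, from Slc3a2 to Hnrnpul2 (10, 9 and 8 peaks). For H3K27me3 alone the longest runs held 5 genes. One ran from Nkx2-2 over Pax1, Foxa2 and Sstr4 to Thbd on chromosome 2 (chr2:147194243-148408188), and the other from Klrg2 to Parp12 on chromosome 6. Runs of the other combinations held at most 3 genes, such as Hal, Amdhd1 and Ccdc38 for H3K4me1 alone.

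Chromosome X held few marked promoters. Of its 948 promoters 868 (91.6%) had no listed mark, against 56.1% of autosomal promoters. H3K27ac alone was at 65 (6.86%, against 30.1% of autosomal promoters) and H3K27me3 alone at 11 (1.16%, against 8.01%). H3K27ac peaks were listed at 10.1, 12.3 and 2.64% of X promoters in replicates 1 to 3, against 36.7, 46.2 and 17.8% of autosomal ones. Among promoters with a CpG ratio of 0.6 or more, 75.5% of 106 on X and 24.01% of autosomal ones had no listed mark. No H3K4me1 combination was found on X, against 1.17% of autosomal promoters for H3K4me1 alone and 1.86% for H3K4me1 with H3K27ac. Single H3K4me1 libraries listed a peak at 0, 7 and 1 X promoters in replicates 1 to 3. All 183 promoters of chromosome Y were unmarked as well. Chromosome X was chosen for description after its values were seen.

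The classes defined in Oct4+ cells were then looked up in the DP and Pdgfra+ libraries. Promoters with H3K27ac alone had an H3K27ac peak in 83.8, 31.7 and 84.0% of cases in DP replicates 1 to 3 and in 44.2, 62.6 and 52.9% in Pdgfra+ replicates, against 10.7 to 34.9% of all promoters in DP and 15.9 to 22.7% in Pdgfra+. Promoters with H3K27me3 alone had an H3K27me3 peak in 76.6, 92.1 and 86.9% in DP and 16.3, 37.6 and 74.5% in Pdgfra+ libraries, which did not overlap (exact permutation test, 3 against 3, p = 0.10, the smallest possible, adjusted p = 0.333). All promoters stood at 12.1, 17.7 and 13.8% in DP and 2.09, 4.92 and 13.3% in Pdgfra+ for H3K27me3, so the level of the whole list moved with the class. Of the promoters with H3K27me3 alone in Oct4+ cells, 6.74% had H3K27ac in 2 or more DP and 3.10% in 2 or more Pdgfra+ libraries. By that rule all promoters stood at 30.3% in DP and 18.4% in Pdgfra+. Of the 184 with both lysine 27 marks, 54 (29.3%) had H3K27ac in 2 or more DP and 33 (17.9%) in 2 or more Pdgfra+ libraries, near the shares of all promoters. H3K27me3 was at 150 (81.5%) in DP and 83 (45.1%) in Pdgfra+, against 14.6 and 5.38% of all promoters. Promoters with H3K9me3 alone had H3K9me3 in 2 or more libraries at 79 of 209 in DP and 54 of 209 in Pdgfra+, against 0.913 and 0.949% of all promoters. None of the 10 differences between DP and Pdgfra+ that were tested could pass with 3 libraries against 3 (lowest adjusted p = 0.333, exact permutation test), and 0 had an unadjusted p under 0.05.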

How the data were processed

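CUT&Tag was performed by the authors on 3 sorted populations with 14 cycles of PCR and paired-end sequencing, and peaks were called with SEACR (stringent) against IgG. The submitters' processing notes name mm10, bcl2fastq 2.19.1, Bowtie2, SAMtools 1.12, deepTools, SEACR and bedtools 2.26.0. Each deposited list gives, per peak, the total signal and the maximum signal as whole numbers of coverage. Whether coverage was scaled to depth before peak calling is not known. The depth of the libraries is unknown, so list lengths, which ran from 1629 to 65131 peaks in Oct4+ cells, limit what a missing peak shows. The 3 IgG samples were not used here.

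Gene starts were taken from the GENCODE annotation of GRCm38 for 21911 protein-coding genes, leaving out 27 entries that share a symbol. Windows of 2324 promoters (10.6%) overlapped another's. RefSeq promoter sequences (GRCm38.p6) matched 16522 symbols. Overlaps were computed with Python 3.11.15, NumPy 2.4.6, pandas 2.3.3 and bedtools 2.31.1, tests with SciPy 1.17.1 and plots with Matplotlib 3.10.9. Marks were compared over libraries with exact two-sided permutation tests (369600 assignments of 12 libraries, 1680 of 9) and Benjamini-Hochberg adjustment within each family, at 0.05. The scripts were tested on simulated data. The study describes the replicates as biological, and the labels do not say whether they were separate cultures or sorts, so p-values measure the spread between these samples. Genes were named as members of fixed lists and families, as the up to 3 highest-ranked promoters of each combination, and as the longest runs of neighbours. The members and lists were chosen with earlier results of these data known.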

Additional observations from a re-analysis of the deposited data

How the results depend on the processing

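Depth is unknown, and a listed peak depends on the length of its list. Same-numbered libraries of different marks correlated at -0.0342 to 0.107 in their deviations, with 1 of 18 pairs over 0.1. List length also differs between these libraries, so the correlations cannot show whether the numbers pair the samples. With the replicate block the 4 promoter measures kept their calls, and co-occurrence with H3K4me1 (-0.944 percentage points, adjusted p = 0.0556 by exact permutation test), H3K27ac (42.8, 0.0556) and H3K27me3 (14.4, 0.0833) did not pass. The block allows no p below 0.0278 there.

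With every library held to 1074 peaks, H3K27me3 minus H3K27ac was 1.59 percentage points, 2414.5 bp in width and 407.25 bp in distance. Leaving out a replicate gave -33.1 to -15.96 points, 1105.5 to 3590.75 bp and 241.375 to 323.5 bp. Co-occurrence with H3K4me1 turned to 0.14 with a peak in 3 of 3 libraries, 0.92 with a window 2 kb to either side, 1.05 with the upper 50% of peaks, 3.25 with equal lists and 0.22 with every transcript start, and ran from -1.14 to 0.132 with a replicate left out, with 0.114 without replicate 1. Leaving out a replicate gave 22.9 to 40.2 for H3K27ac and 8.97 to 11.9 for H3K27me3, where 2 libraries a mark cannot go below an exact p = 0.0667. Co-occurrence with H3K9me3 passed at -0.87 with a peak in 1 or more libraries, -0.33 with 3 of 3, -0.42 with the narrower window, -0.0955 with the maximum inside the promoter and -0.363 with the upper 50%.

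DP minus Pdgfra+ turned with equal lists to -0.0354 (H3K27ac at unmarked promoters), -0.601 (H3K27ac at H3K27ac), -3.92 (H3K27me3 at H3K4me1 with H3K27ac) and -0.0443 (H3K27ac at H3K27me3), and with the upper 50% to -3.92 (H3K27ac at H3K4me1 with H3K27me3). With a replicate left out H3K27ac ran from -4.22 to 26.9 at H3K27ac and -2.33 to 19.8 at H3K4me1 with H3K27ac, each lowest without replicate 1, and from -0.128 to 6.47 at H3K27me3 and -6.67 to 9.38 at H3K4me1 with H3K27me3, each lowest without replicate 3.

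Unmarked promoters numbered 8359 with a peak in 1 or more libraries and 20715 with equal lists. H3K27ac alone had 3424 with 3 of 3 libraries, 2767 with the maximum inside and 333 with equal lists. H3K27me3 alone had 892, 441 and 753 under these settings and 1098 with the upper 50%. H3K9me3 alone had 114, 71, 26 and 132, and 351 with the 2 kb window. H3K4me1 with H3K27ac had 47, 57, 17 and 178, 1733 with 1 or more libraries, 725 with the 2 kb window and 662 with every start. H3K4me1 with H3K27me3 had 14, 14, 4 and 17, and 331 with 1 or more. With a replicate left out the counts ran from 14010 to 17097 (unmarked), 3440 to 6454 (H3K27ac), 784 to 1806 (H3K27me3), 125 to 196 (H3K9me3), 53 to 176 (H3K4me1 with H3K27ac) 16 to 81 (H3K4me1 with H3K27me3), 115 to 378 (H3K4me1 alone), 8 to 84 (H3K27ac with H3K27me3), 18 to 47 (H3K27ac with H3K9me3), 1 to 3 (H3K27me3 with H3K9me3) and 1 to 10 (H3K4me1, H3K27ac and H3K27me3). The causes were not tested.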
